A study of Mus musculus with 16 samples.

Results

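The 33 genes described here encode the steps by which mitochondria burn fatty acids: acyl-CoA activation, carnitine uptake and shuttle, acyl-CoA dehydrogenation, hydration to thiolysis, the auxiliary enzymes for double bonds, electron transfer, and the coactivator Ppargc1a. They were taken by name as a list of known pathway genes, not by a rule on measured values. Earlier results of these data were known when the list was chosen. All 33 were found among the 54532 genes of the table of uninjected retinas and among the 48440 genes of the table of injected retinas. The study asked what ageing, a mutated elongase (Elovl2) and supplementation with a polyunsaturated fatty acid do in the mouse retina.

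RNA-seq was collected from 16 whole retinas of mice of the strain C57BL6/J. Of the uninjected retinas, 3 were from wildtype mice aged 12 months, 3 from Elovl2 mutants of that age and 4 from wildtype mice aged 18 months. The genotype labels spell the Elovl2 substitution C34W, the series design spells it C234W, and the zygosity was not stated. The injected retinas were from wildtype mice aged 18 months and were taken after 5 days: 3 had received 0.36 nmol of the fatty acid 24:5 (24 carbons and 5 double bonds) by intravitreal injection, and 3 vehicle, which went into the fellow eye. The vehicle retinas therefore share the age, the genotype and the injection with the treated ones. Neither the pairs of fellow eyes nor the number of animals is labelled, so a p-value here reflects the spread among libraries, some of which may be technical.

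In fatty acid oxidation, a fatty acid is first joined to coenzyme A, and long chains are then carried across the mitochondrial membranes as carnitine esters. Inside, acyl-CoA dehydrogenases, hydratases, hydroxyacyl-CoA dehydrogenases and thiolases remove acetyl-CoA in repeated rounds, and polyunsaturated chains need isomerases and a reductase as well. Electrons from the dehydrogenases pass through the electron transfer flavoprotein to the respiratory chain. Photoreceptors are known for a high demand for energy met in large part from glucose, with fatty acids as a further fuel.

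The uninjected libraries held 12810600 to 30519400 reads, recovered from the FPKM values (fragments per length of gene, scaled to the size of the library). The injected libraries held 22066700 to 25609200 counts. The 33 genes took 0.171% to 0.197% of the reads of a library. All 6 rod markers on the list were abundant in every library, with a summed level of 10083.9 to 11505.7 FPKM uninjected as the labelled tissue has. Pigment epithelium markers ranged from 57.9 to 165.8 FPKM in sum, and wildtype libraries at 18 months held both extremes. The 3 adipocyte markers stayed below 1 FPKM and below 1 CPM (counts scaled to library size) in every library. Of the 5 skeletal muscle markers the sum was 10.2 FPKM in replicate 1 of the mutant and 3.3 to 4.1 FPKM in the other uninjected libraries. In bulk samples, fewer cells of a type and less RNA per cell cannot be told apart.

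Of the 3 long-chain acyl-CoA synthetase genes, which activate fatty acids, Acsl3 had the highest RNA level. It was the highest of all 33 genes, at 93.5 ± 9.51 FPKM (SD, n = 10 uninjected libraries). Its libraries read 102, 79.6 and 107 FPKM in wildtype at 12 months, 79.7, 93.5 and 102 FPKM in the mutant, and 86.9, 89.7, 101 and 94.4 FPKM in wildtype at 18 months. The 3 groups overlapped across almost their whole range. Acsl1, the synthetase best known from heart, fat and liver, was at 9.22 ± 0.69 FPKM, and Acsl5 was at 2.94 ± 0.21 FPKM (SD, n = 10 each). The level of Acsl3 was 7.65 to 12.2 times that of Acsl1 in the uninjected libraries, or 3.14 to 5.00 times when scaled to the principal transcripts. Acsl3 is known as an enzyme of the endoplasmic reticulum and lipid droplets, so its level is not a measure of activation at the mitochondrion. Acsl3 shares part of its gene span with Utp14b on the same strand, and Acsl5 with Zdhhc6 on the opposite strand. Zdhhc6 had 908 reads per library against 282 for Acsl5, and the strand setting of the counting is not given in the sources used here, so the level of Acsl5 is uncertain. Echs1, Etfdh and Crat overlap the expressed genes Paox, 4930579G24Rik and Dolpp1 on the opposite strand over 678, 422 and 59 bases. These stretches are shorter than the 26430 bases of gene span that Acsl5 shares with Zdhhc6. Their part in the levels was not tested.

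**Figure D1:**
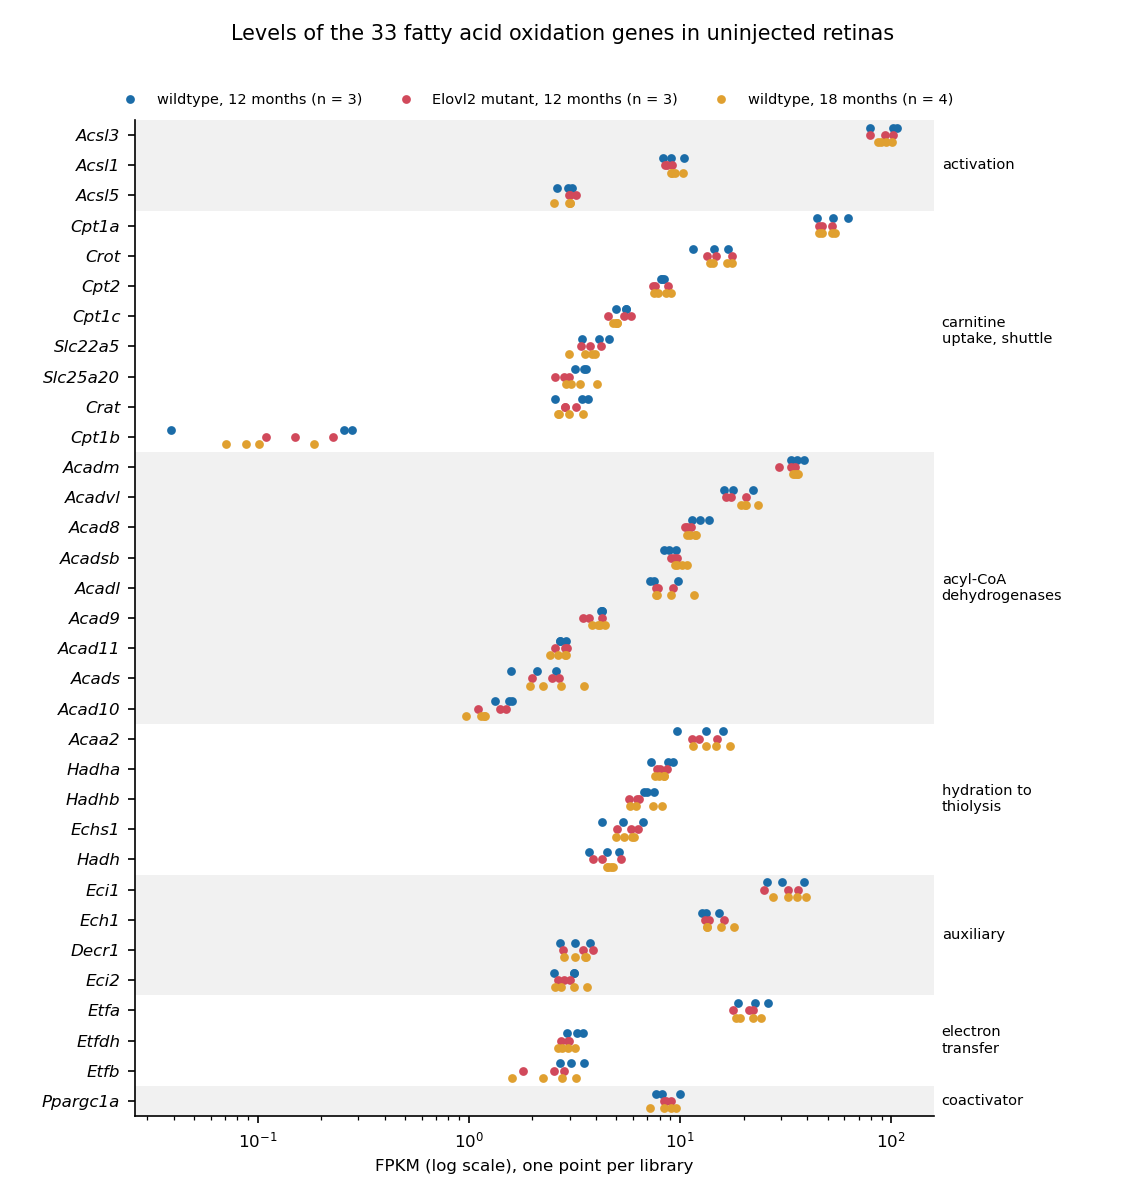
FPKM of each of the 33 genes (rows, ordered by role and then by level; log scale), with 1 point per uninjected library and 1 colour per group. Acsl3 lies near 93.5 FPKM and Cpt1b below 0.28 FPKM. The points of the 3 groups lie close together for most genes, while those of Cpt1b spread 7.11 times from the lowest to the highest library.

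Among the carnitine genes, Cpt1a stood above the other genes of its family. Cpt1a makes acylcarnitines at the outer mitochondrial membrane and is inhibited by malonyl-CoA. It was at 50.4 ± 5.59 FPKM (SD, n = 10), with 53.1, 62.7 and 44.5 FPKM in wildtype at 12 months, 52.2, 47.0 and 45.7 FPKM in the mutant, and 45.4, 54.0, 52.2 and 47.0 FPKM in wildtype at 18 months. The lowest and the highest library were both wildtype at 12 months. Cpt1c, the brain form of the endoplasmic reticulum, was at 5.18 ± 0.41 FPKM. Cpt1a exceeded Cpt1c 7.78 to 11.3 times in the uninjected libraries, or 3.86 to 5.59 times when scaled to the principal transcripts. Cpt1b, the muscle form, was at 0.15 ± 0.08 FPKM with 3 to 28 reads per library, the lowest of the 33 genes. Cpt1b was 0.087, 0.376 and 0.222 CPM with vehicle and 0.159, 0.085 and 0.409 CPM with 24:5, and it did not pass the filters of the main tests. By edgeR on the recovered reads its log2 differences had wide errors, with -0.77 (SE 0.60) for age and -0.28 (SE 0.60) for genotype, and it was not called.

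The partners of Cpt1a were lower than Cpt1a. Cpt2, which turns acylcarnitines back into acyl-CoA inside the mitochondrion, was at 8.15 ± 0.54 FPKM, and Cpt1a exceeded it 5.02 to 7.49 times. Slc25a20, the carnitine-acylcarnitine carrier of the inner membrane, was at 3.2 ± 0.43 FPKM, and Slc22a5, the carnitine importer of the plasma membrane, at 3.78 ± 0.47 FPKM. The ranges of these 2 carriers overlapped. Crot, which makes carnitine esters of chains shortened in peroxisomes, was at 15.1 ± 2.02 FPKM, and Crat, the acetyltransferase, at 3.04 ± 0.39 FPKM (SD, n = 10 each).

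Medium-chain Acadm led the 9 dehydrogenases. Acadm was at 34.7 ± 2.34 FPKM, very-long-chain Acadvl at 19.4 ± 2.40 FPKM, long-chain Acadl at 8.55 ± 1.39 FPKM and short-chain Acads at 2.38 ± 0.54 FPKM (SD, n = 10 each). The order Acadm, Acadvl, Acadl, Acads held without overlap over all 10 libraries: Acadm ranged from 29.4 to 38.5 FPKM, Acadvl from 16.1 to 23.3, Acadl from 7.24 to 11.7 and Acads from 1.59 to 3.5. In the injected libraries the ratio of Acadm to Acadvl was 0.77 to 1.09 per kilobase of gene, against 1.43 to 2.22 uninjected. The tables were normalised separately, so these ratios stand side by side without a test. Acadvl overlaps Dvl2 on the opposite strand (539 reads per library against 1013 for Acadvl), which makes its level uncertain.

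Of the remaining dehydrogenases, Acad8 and Acadsb, which act in the breakdown of valine and isoleucine, were at 11.6 ± 0.95 and 9.51 ± 0.67 FPKM. Acad9, also known as an assembly factor of respiratory complex I, was at 4.07 ± 0.30 FPKM. Acad11 was at 2.74 ± 0.17 FPKM and Acad10 at 1.3 ± 0.21 FPKM (SD, n = 10 each). Acad10 was the lowest of the 32 genes that passed the filter of a mean of at least 1 FPKM, at percentile 6.01 of the 13786 genes tested, while Acsl3 was at percentile 97.7.

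The steps after dehydrogenation were at similar moderate levels. Acaa2, the mitochondrial thiolase, was at 13.4 ± 2.33 FPKM and Hadha and Hadhb, the subunits of the trifunctional protein, at 8.21 ± 0.60 and 6.72 ± 0.80 FPKM. Echs1, the short-chain hydratase, was at 5.59 ± 0.72 FPKM and Hadh, the short-chain hydroxyacyl-CoA dehydrogenase, at 4.54 ± 0.49 FPKM (SD, n = 10 each). The ratio of Hadha to Hadhb lay between 0.93 and 1.51 in the uninjected libraries (median 1.28) and between 0.98 and 1.18 in the injected ones (median 1.0).

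Auxiliary enzymes for unsaturated chains are of interest here because the injected fatty acid carries double bonds. Eci1, which shifts a double bond during oxidation, was at 32.4 ± 5.17 FPKM, against 2.93 ± 0.35 FPKM for Eci2, of related function. Eci1 exceeded Eci2 8.88 to 13.6 times in the uninjected libraries, or 2.69 to 4.12 times when scaled to the principal transcripts. Ech1, a dienoyl-CoA isomerase, was at 14.5 ± 1.73 FPKM and Decr1, the dienoyl-CoA reductase, at 3.29 ± 0.42 FPKM (SD, n = 10 each). The ratio of Eci1 to Decr1 was 7.76 to 11.5 in the uninjected libraries, or 5.68 to 8.44 when scaled to the principal transcripts. Among the carriers of electrons, Etfa was at 21.3 ± 2.70 FPKM, Etfdh, the ubiquinone oxidoreductase, at 2.98 ± 0.26 FPKM and Etfb at 2.63 ± 0.60 FPKM. Etfa and Etfb encode the subunits of 1 heterodimer, yet the level of Etfa was 6.16 to 12.4 times that of Etfb. Etfb rested on 30 to 122 reads per library. Ppargc1a, a coactivator of mitochondrial genes, was at 8.60 ± 0.84 FPKM (SD, n = 10).

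Within the uninjected table the 33 genes varied little from library to library. The highest library exceeded the lowest 1.2 times for Acad11 and 1.34 times for Acsl3. This ratio was 2.19 for Etfb, 2.2 for Acads and 7.11 for Cpt1b. The median coefficient of variation within groups was 11.2% over the 32 genes tested, beside 11.4% over all 13786 genes. In the injected table these medians were 9.46% and 12.0%. Acadsb was among the steadiest genes in both tables, at 5.23% and 3.60%, and Etfb and Acads were among the most variable. The summed level of the 33 genes was 380.6 to 436.8 FPKM. It was 433.7, 397.5 and 436.8 FPKM in wildtype at 12 months, 380.6, 404.4 and 424.1 in the mutant, and 435.6, 408.2, 417.2 and 421.3 in wildtype at 18 months, so the groups overlapped.

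The order of levels depended on the gene length used. The deposited length equals the union of all annotated exons in GENCODE M21 for 30 of the 33 genes. The exceptions are Cpt1a (4300 bases against a union of 7642), Eci1 (1091 against 2127) and Acaa2 (1515 against 1516). For 11 of the 33 genes the deposited length is more than 2 times that of the principal transcript (APPRIS, in the same annotation). Rescaling FPKM to the principal transcript moved the mean of 24 of the 33 genes by more than the SD over libraries. Echs1 went from 5.59 to 29.7 FPKM and from rank 18 to rank 5, and Hadhb from 6.72 to 21.6 FPKM and from rank 17 to rank 11. Acadm went from 34.7 to 66.3 FPKM and passed Cpt1a, at 50.2 FPKM. Acsl3 stayed first at 103 FPKM. The ratio of Hadha to Hadhb turned from a median of 1.28 to 0.86, whereas that of Etfa to Etfb was 7.76 on the deposited length and 7.85 on the principal one. A change of length multiplies all libraries of a gene alike, so it leaves the ratios of FPKM between groups unchanged. The filter and the log2(FPKM + 1) scale of the limma tests do depend on the length. These tests were not rerun with the principal length.

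**Figure D2:**
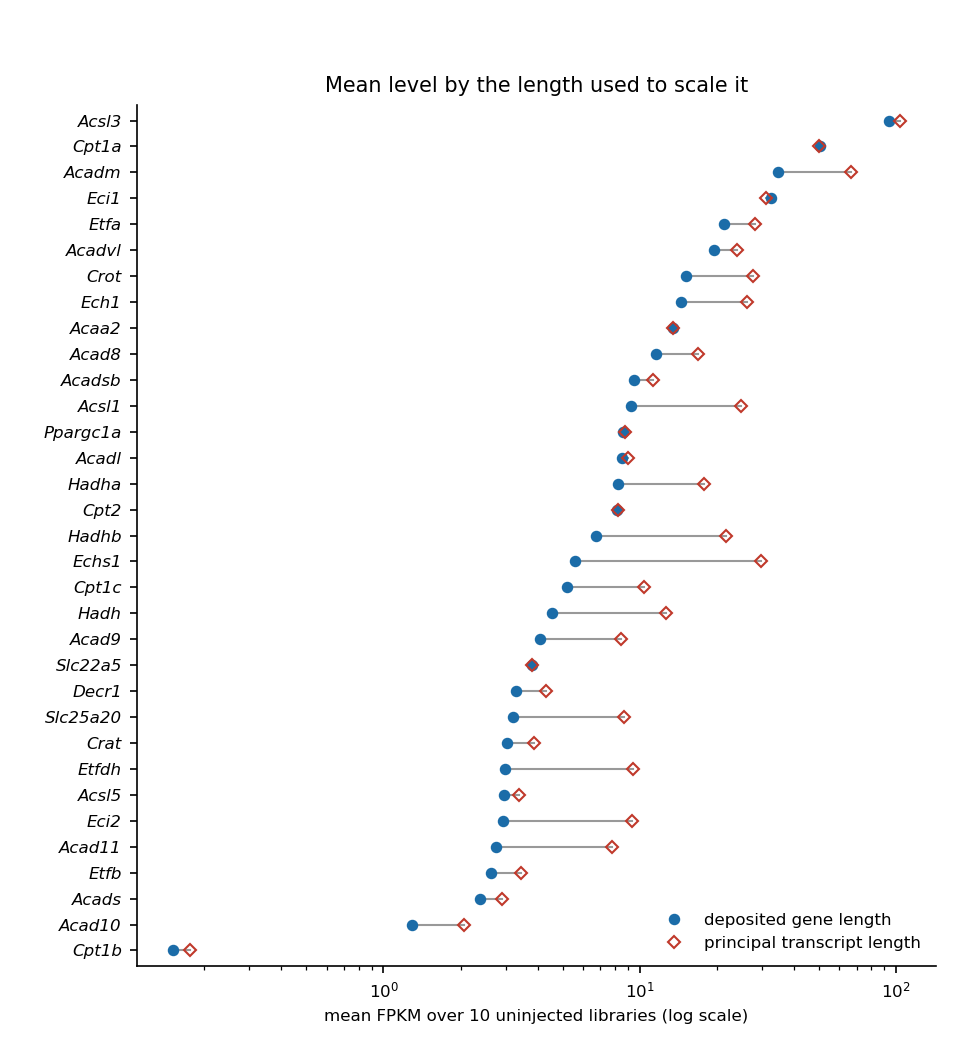
Mean FPKM of each gene over the 10 uninjected libraries (log scale), scaled by the deposited gene length (filled circles) or by the principal transcript (open diamonds). Echs1 moves from 5.59 to 29.7 FPKM, while Cpt1a, Cpt2 and Slc22a5 hardly move.

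Hadha and Hadhb lie head to head on chromosome 5, Hadha on the minus strand (30118304 to 30155162, mm10) and Hadhb on the plus strand (30155248 to 30184593). The 85 bases between their annotated ends, chr5:30155163-30155247 in GRCm38.p6 and written on the plus strand from RefSeq, are shown because this 1 short interval lies directly before the starts of both subunit genes. Capitals mark the GC box GGGCGG.
Hadha-Hadhb gap: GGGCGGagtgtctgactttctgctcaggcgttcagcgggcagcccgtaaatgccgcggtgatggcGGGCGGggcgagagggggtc

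Promoter windows of 250 bases before to 50 bases after the RefSeq start were matched for 28 of the 33 genes, not for Decr1, Crat, Cpt1b, Acaa2 and Acad9. The GC box GGGCGG was found on either strand in 22 of the 28 (78.6%), beside 35.7% of all 32851 promoters. CCAAT was found in 13 of 28 (46.4%, beside 37.4%). The core GCGCATGC of the factor NRF1, a regulator of nuclear genes of mitochondria, was found in 4 of 28 (14.3%, beside 2.71%): Acad10, Acadm, Etfa and Etfdh. The nuclear receptor half-site AGGTCA was found in 5 of 28 (17.9%, beside 16.3%). The longer words CAAAGGTCA, the core of a PPAR repeat, and TCAAGGTCA, an ERR site, were in none of the 28 windows, beside 0.478% and 0.423% of all promoters, and the E-box CACGTG was in none, beside 7.15%. AGGTCA lies within both longer words. These matches are letters in a window and say nothing of binding. The 32851 promoters were not limited to expressed genes. Whether a higher share among the 28 is particular to this pathway was therefore not tested.

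The windows of Acadm (chr3:153944778-153944817, minus strand) and Etfa (chr9:55512325-55512364, minus strand) around the NRF1 core are shown as examples, 5′ to 3′ on the strand of the gene. Capitals mark the core, read on either strand, which begins at position -158 from the start of Acadm and -105 from that of Etfa.
Acadm: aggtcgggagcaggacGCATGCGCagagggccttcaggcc
Etfa: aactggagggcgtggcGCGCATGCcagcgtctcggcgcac

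The uninjected libraries differed in 1 respect that crosses the groups. Malat1, a nuclear noncoding RNA, was at 229 to 377 FPKM in 5 libraries (wildtype at 12 months replicates 1 and 2, mutant replicate 1, wildtype at 18 months replicates 2 and 3) and at 85.7 to 150 FPKM in the other 5. Of the 32 genes tested, 7 did not overlap between these 2 sets of libraries, 3 lower and 4 higher where Malat1 was high. Among all genes tested 22.5% did not overlap, 9.86% lower and 12.6% higher, which is close to the share of the 32. Cpt1a was at 52.2 to 62.7 FPKM in the 5 libraries with high Malat1 and at 44.5 to 47.1 FPKM in the others. Slc22a5, Hadha and Crat were also higher there. Crot was at 11.5 to 14.4 FPKM in the libraries with high Malat1 and at 14.8 to 17.7 FPKM in the others, and Echs1 and Acad11 were lower as well. For these 7 genes the spread within groups followed this split, and the split was therefore also fitted as a term. With it none of the 32 was called by limma in the 3 uninjected comparisons, and 2, 4 and 2 had an unadjusted p below 0.05 for age, genotype and 18 months against mutant. Among all genes 6.83%, 4.88% and 5.44% did so in the same fits.

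In the age comparison, wildtype at 18 months against wildtype at 12 months, none of the 32 genes tested passed the threshold of an adjusted p of 0.05 in limma. The share called over all 13786 genes was 0%. DESeq2 and edgeR on the recovered reads also called none of the oxidation genes. The median log2 difference of the 32 genes was -0.02, beside -0.001 over all genes, with 13 higher and 19 lower, beside 49.4% higher over all genes. Without replicate 3 of wildtype at 12 months the median was 0.01. At an unadjusted p below 0.05 there were 2 of the 32, beside 3.65% of all genes.

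Acad10, a member of the acyl-CoA dehydrogenase family, had the smallest p. It was at 1.54, 1.60 and 1.33 FPKM at 12 months and at 0.974, 1.18, 1.19 and 1.14 FPKM at 18 months, so the groups did not overlap, as for 4.17% of all genes, and for 2.22% in this direction. The log2 difference of Acad10 was -0.23 (SE 0.10, 95% interval -0.44 to -0.02, limma adjusted p = 1.0). With a pseudocount of 0.1 it was -0.38, and by edgeR or DESeq2 on the recovered reads -0.40, none of them past the threshold. It was the only one of the 32 whose groups did not overlap. Acadsb was at 8.87, 8.43 and 9.55 FPKM at 12 months and at 10.2, 9.41, 9.70 and 10.8 FPKM at 18 months, with overlap, and its log2 difference was 0.15 (SE 0.07, limma adjusted p = 1.0).

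Acad8 was lower by a log2 difference of -0.13, Etfdh by -0.12 and Etfb by -0.26, whereas Acadvl was higher by 0.16, all with overlap between groups. Each of these 4 values turned on single libraries. Acad8 was at -0.06 without replicate 3 of wildtype at 12 months, Etfdh at -0.07 without replicate 2 of that group, and Etfb at -0.13 without replicate 3 of wildtype at 18 months. Acadvl was at 0.06 without replicate 3 of wildtype at 12 months and at 0.28 without replicate 2. All 3 electron transfer genes and 6 of the 7 carnitine genes tested had a negative log2 difference, and that of all 4 auxiliary genes was positive. No interval in these 3 roles excluded 0. On the log2(FPKM + 1) scale, where low genes appear to change less than they do, 29 of the 32 intervals lay within 0.5 of 0 and all 32 within 1. By edgeR on the recovered reads, 27 of 33 lay within 0.5, the exceptions being Acaa2, Acadl, Etfb, Acads, Acad10 and Cpt1b.

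**Figure D3:**
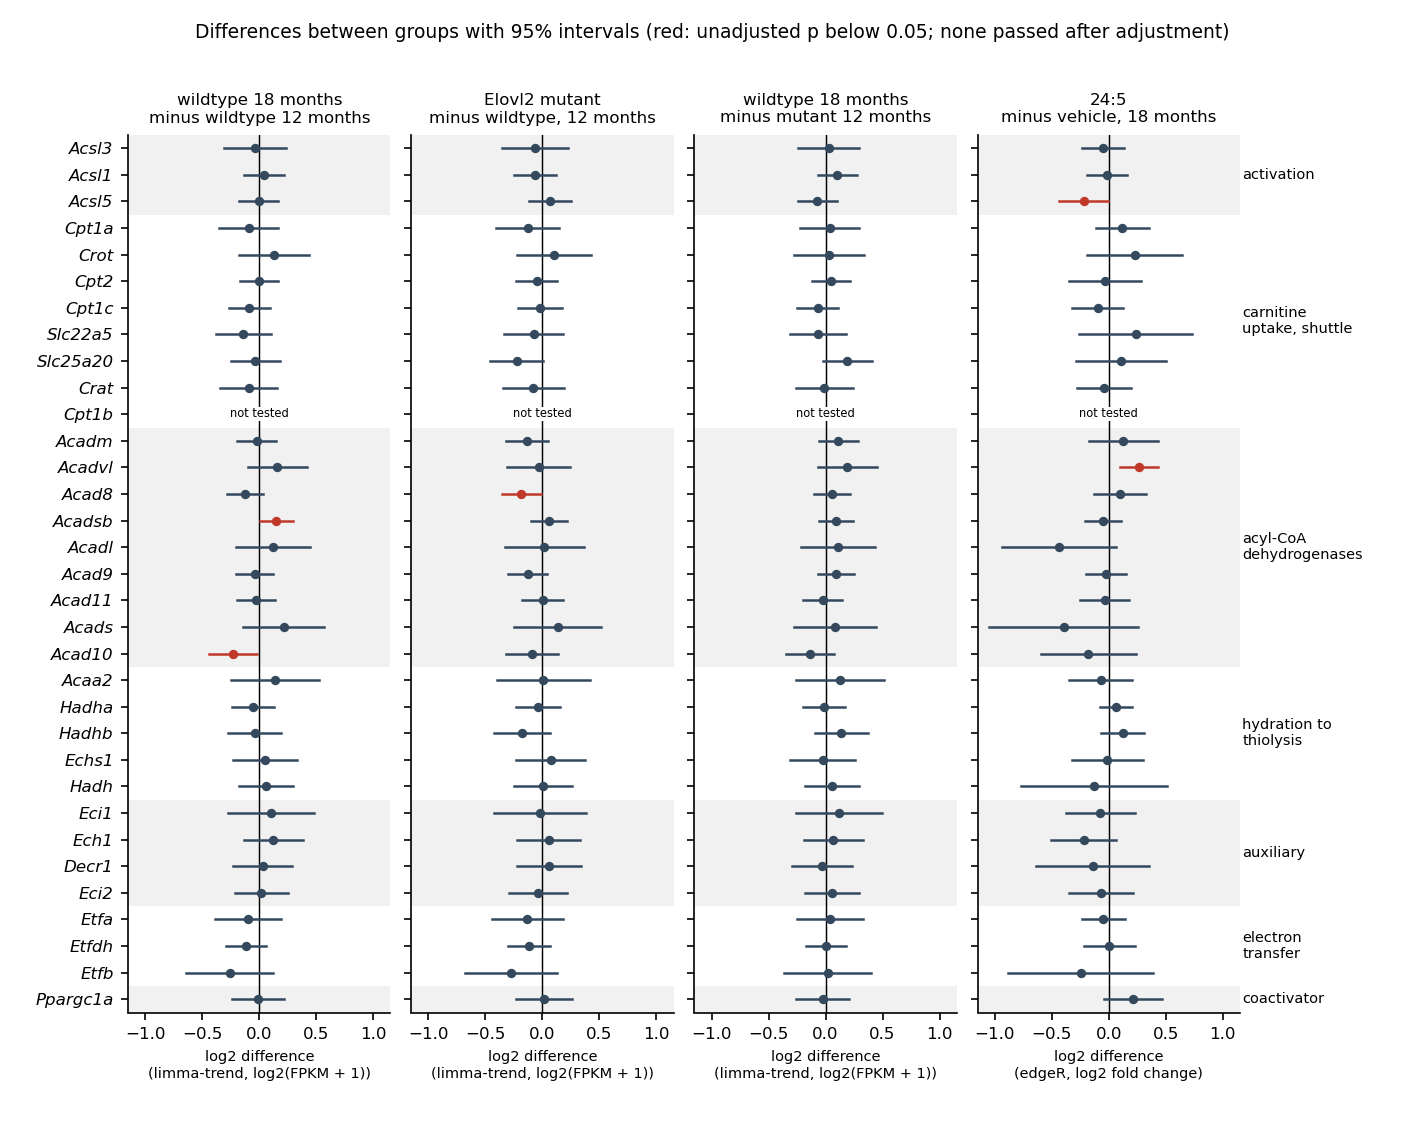
Log2 difference of each gene (rows, in the order of the plot of levels by role) in the 4 comparisons, with its 95% interval, from limma-trend on log2(FPKM + 1) for the uninjected and edgeR for the injected retinas. Most intervals cross 0; red marks an unadjusted p below 0.05, which 2, 1, 0 and 2 of 32 genes reached, and none passed after adjustment.

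Against wildtype of the same age, the Elovl2 mutant at 12 months had none of the 32 genes called by limma, nor by edgeR or DESeq2 on the recovered reads, and 0% of all genes were called by limma. This comparison shares its 12-month wildtype libraries with the age comparison, so a low or high control moves both. The median log2 difference was -0.04, beside -0.01 over all genes, with 12 higher and 20 lower (47.7% higher over all genes). At an unadjusted p below 0.05 there was 1 of the 32, beside 2.19% of all genes. In 3 genes, Acad8, Slc25a20 and Hadhb, all mutant libraries were below all wildtype ones, a separation found in 2.92% of all genes in this direction and 5.97% in either.

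Acad8 was at 12.5, 11.4 and 13.8 FPKM in wildtype and at 10.8, 10.6 and 11.3 FPKM in the mutant (log2 difference -0.18, SE 0.08, limma adjusted p = 1.0). Slc25a20, the carrier of the inner membrane, was at 3.51, 3.2 and 3.59 FPKM in wildtype and at 2.82, 2.56 and 2.98 FPKM in the mutant (log2 difference -0.23, SE 0.10, limma adjusted p = 1.0). Hadhb was at 6.74, 6.94 and 7.54 FPKM in wildtype and at 5.75, 6.38 and 6.26 FPKM in the mutant (log2 difference -0.18, SE 0.11). None of the 3 passed after adjustment. Hadha, the partner of Hadhb, overlapped between the groups, at 9.26, 8.79 and 7.28 FPKM in wildtype and 8.67, 7.75 and 8.08 FPKM in the mutant.

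Acad9 had nearly equal wildtype libraries, at 4.26 ± 0.0217 FPKM (SD, n = 3), against 3.81 ± 0.393 FPKM in the mutant (SD, n = 3; log2 difference -0.13). Acadm differed by -0.14 and Etfb by -0.28, with overlap. Without replicate 3 of the mutant Etfb was at -0.15 and Acad9 at -0.08, and without replicate 1 of the mutant Acadm was at -0.06. Acad8 was at -0.12 without replicate 3 of wildtype. Etfb was at 3.52, 3.05 and 2.69 FPKM in wildtype and 2.54, 2.83 and 1.80 FPKM in the mutant. Of the 32 intervals 30 lay within 0.5 of 0 and all within 1. By edgeR on the recovered reads 29 of 33 lay within 0.5, and those of Slc25a20, Etfb, Acads and Cpt1b did not.

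**Figure D4:**
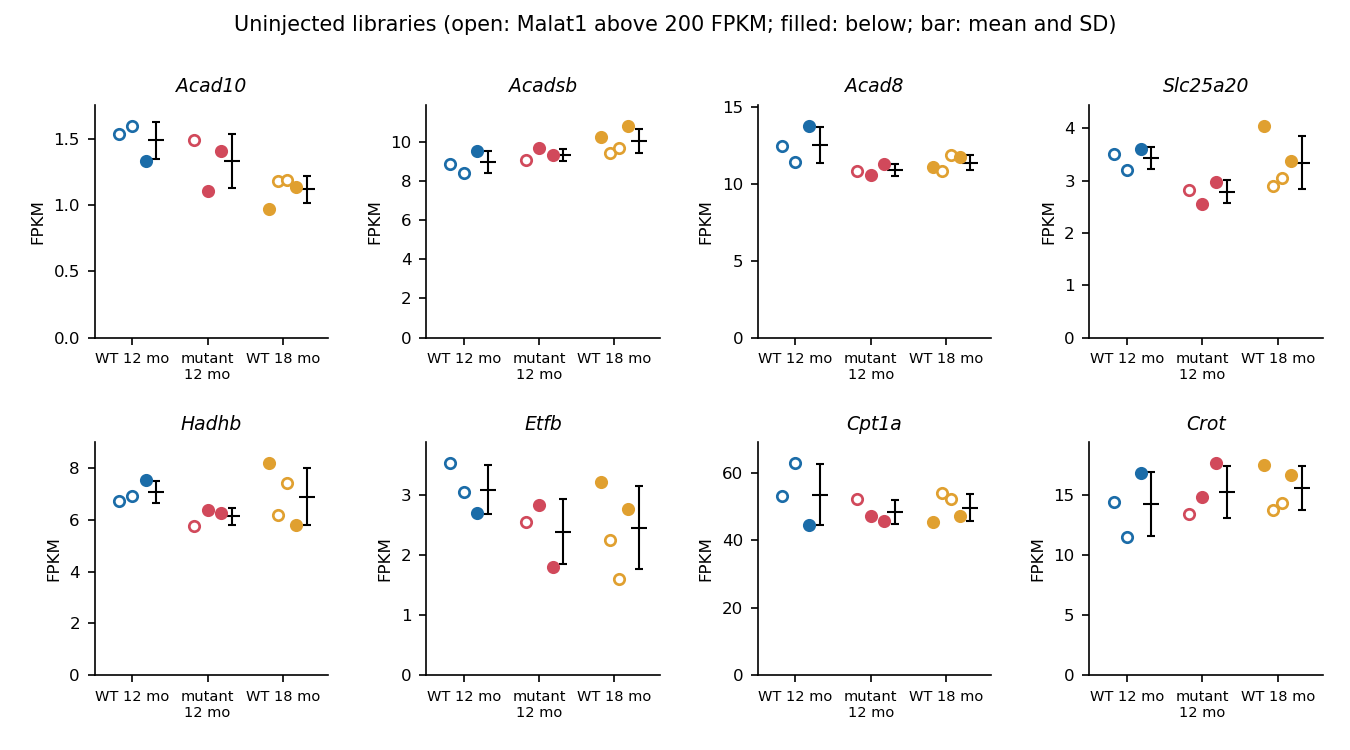
FPKM of 8 genes in each uninjected library by group (points), with the mean and SD beside them; open points are libraries with Malat1 above 200 FPKM. Acad10 separates 18 from 12 months in wildtype, and Acad8, Slc25a20 and Hadhb separate the mutant from wildtype at 12 months, while in Cpt1a and Crot the open and filled points separate within every group.

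Wildtype at 18 months was also set against the mutant at 12 months, which asks how alike an older retina and a younger mutant one are, and which shares libraries with both comparisons above. None of the 32 genes was called by limma, nor by edgeR or DESeq2 on the recovered reads, and 0% of all genes were called by limma. At an unadjusted p below 0.05 there were 0 of the 32, beside 2.14% of all genes, and no gene separated the groups, beside 4.47%. The median log2 difference was 0.04, beside 0.01 over all genes, with 22 higher and 10 lower (53.2% higher over all genes). Replicate 1 of wildtype at 18 months had a large part in this median: without it the median was 0.01, with 17 higher and 15 lower. Slc25a20 had the smallest p, at 4.04, 2.90, 3.05 and 3.37 FPKM at 18 months and 2.82, 2.56 and 2.98 FPKM in the mutant (log2 difference 0.19, SE 0.10, limma adjusted p = 1.0). The next genes were Acadvl (0.19), Acadm (0.11), Acad10 (-0.14), Acadsb (0.09) and Hadhb (0.14), as log2 differences. Without replicate 1 of wildtype at 18 months Slc25a20 was at 0.12 and Hadhb at 0.06, and without replicate 1 of the mutant Acadm was at 0.04 and Acad10 at -0.09. Acadsb was at 0.06 without replicate 4 of wildtype at 18 months. Of the 32 intervals 31 lay within 0.5 of 0, and by edgeR on the recovered reads 25 of 33.

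Injection of 24:5 was compared with vehicle on the counts of the 6 injected libraries. None of the 32 genes tested passed in edgeR's quasi-likelihood test, in DESeq2 or in limma-voom, and by edgeR 2 of all 17466 genes did (0.0115%). The median log2 difference was -0.04, beside 0.00 over all genes, with 11 higher and 21 lower (50.8% higher over all genes). Without replicate 3 of 24:5 the median was 0.00, with 18 higher and 14 lower. At an unadjusted p below 0.05 there were 2 of the 32, beside 6.61% of all genes. The groups did not overlap for 3 genes, Acadvl and Hadha higher and Acsl5 lower with 24:5, beside 11.6% of all genes, 4.82% higher and 6.77% lower.

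Acadvl, which opens the oxidation of very long chains, had the smallest p of the 32. It was at 79.0, 78.1 and 73.6 CPM with vehicle and at 98.03, 92.6 and 86.3 CPM with 24:5. All 3 treated libraries were above all 3 controls. The log2 difference of Acadvl was 0.26 (SE 0.07, 95% interval 0.10 to 0.43, edgeR adjusted p = 0.429), so it did not pass. Acsl5 was at 19.9, 21.4 and 21.1 CPM with vehicle and at 17.3, 19.2 and 17.2 CPM with 24:5 (log2 difference -0.22, SE 0.09, edgeR adjusted p = 0.750). The overlaps of Acadvl with Dvl2 and of Acsl5 with Zdhhc6, described above, make these differences uncertain as well. The part of the overlapping genes in them was not tested.

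Acadl, the long-chain dehydrogenase, had the largest difference, but replicate 1 of 24:5 lay among the controls. It was at 16.1, 15.4 and 14.9 CPM with vehicle and at 15.5, 10.5 and 8.19 CPM with 24:5 (log2 difference -0.44, SE 0.22, edgeR adjusted p = 0.845). The difference of Acadl was -0.73 without replicate 1 of 24:5, -0.25 without replicate 3 and -0.26 with the lens level, given further on, as a covariate. Ppargc1a was at 57.0, 62.5 and 46.6 CPM with vehicle and at 60.8, 64.9 and 66.8 CPM with 24:5 (log2 difference 0.21, SE 0.11, edgeR adjusted p = 0.852). Ech1 was at 39.6, 29.2 and 37.7 CPM with vehicle and at 32.9, 30.04 and 28.5 CPM with 24:5 (log2 difference -0.22). In both genes the groups overlapped. Without replicate 3 of vehicle Ppargc1a was at 0.11, and Ech1 was at -0.14 without replicate 1 of vehicle and at -0.34 without replicate 2.

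Both subunits of the trifunctional protein had slightly higher means with 24:5. Hadha was at 71.4, 68.9 and 71.7 CPM with vehicle and 74.8, 72.1 and 74.6 CPM with 24:5. Hadhb was at 54.2, 52.9 and 46.0 CPM with vehicle and 55.9, 54.0 and 56.9 CPM with 24:5 (log2 difference 0.12, SE 0.08, edgeR adjusted p = 0.947). Neither difference passed the test, and that of Hadhb was 0.06 without replicate 3 of vehicle. All 4 auxiliary genes, including the dienoyl-CoA reductase Decr1, had the lower mean with 24:5, with a median log2 difference of -0.11, and none of the 4 had groups without overlap. Cpt1a, at 196, 207 and 159 CPM with vehicle and 198, 204 and 209 CPM with 24:5, overlapped between groups.

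**Figure D5:**
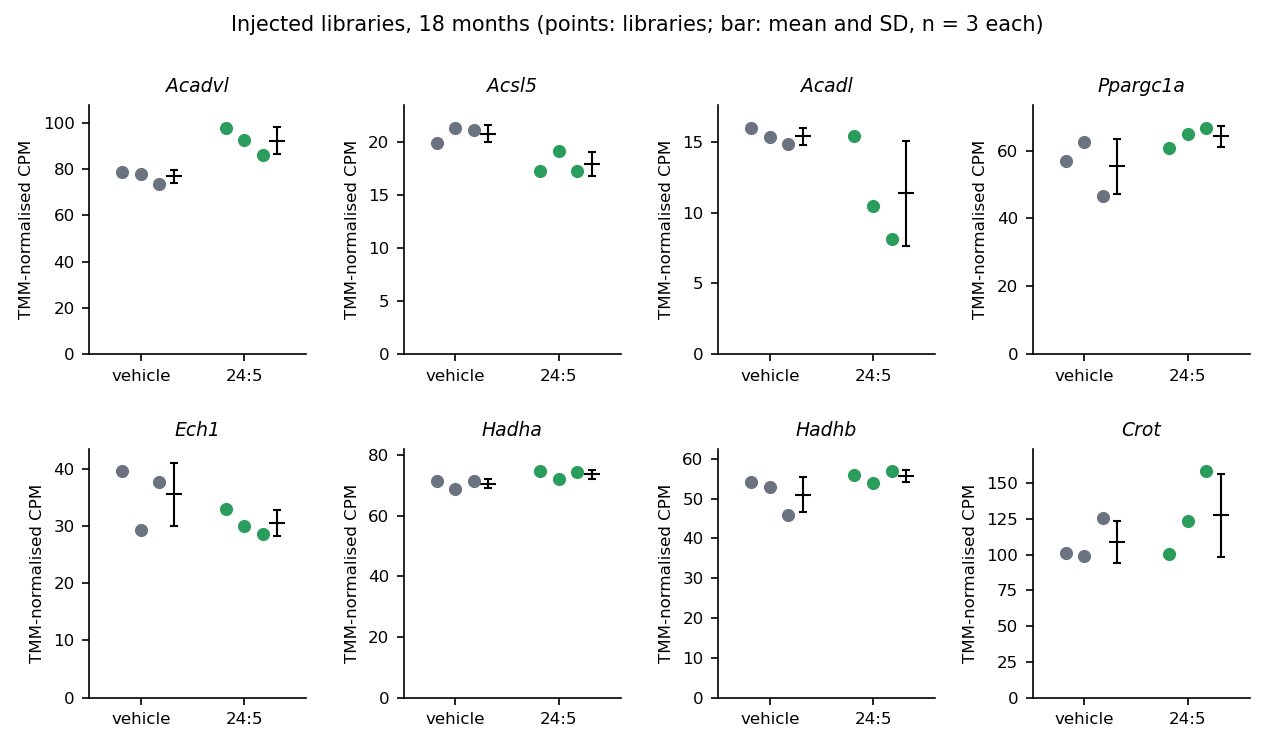
TMM-normalised CPM of 8 genes in each injected library (points), by vehicle and 24:5, with the mean and SD (n = 3 each) beside them. Acadvl, Acsl5 and Hadha separate the groups, Acadl is lower in 2 of 3 treated libraries, and Crot spreads from 101 to 159 CPM within the 24:5 group.

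Some of these genes varied more within the injected groups than between them. Crot was at 101, 99.4 and 126 CPM with vehicle and at 101, 123 and 159 CPM with 24:5, and Hadh at 18.9, 19.5 and 13.8 CPM with vehicle and 22.7, 12.1 and 12.9 CPM with 24:5. Decr1 was at 14.9, 18.1 and 12.3 CPM with vehicle and 17.8, 12.0 and 11.2 CPM with 24:5. The 7 lens markers summed to 1624.5, 1767.1 and 122.4 CPM with vehicle and to 645.2, 122.7 and 53.6 CPM with 24:5, so replicates 1 and 2 of vehicle and replicate 1 of 24:5 stood above the rest. These 3 libraries, above 500 CPM, did not overlap with the other 3 in 13 of the 32 genes, 10 higher and 3 lower where lens RNA was high. Among all genes 30.3% did not overlap, 14.1% higher and 16.2% lower. The 10 were Acadl, Acads, Acad10, Hadh, Echs1, Decr1, Eci1, Etfb, Slc25a20 and Cpt1c, and the 3 were Crot, Slc22a5 and Acad9. Acads, for example, was at 4.81 to 5.28 CPM where lens RNA was high and at 2.42 to 3.68 CPM in the others. The part of lens RNA in these levels was not tested. With the mean lens level as a covariate none of the 32 genes was called. The median log2 difference was 0.00, with 16 higher and 16 lower. At an unadjusted p below 0.05 there were 9, of which 8 were higher and 1 lower with 24:5. Among all genes 13.7% did so, 985 higher and 1403 lower. Acadvl was then at a log2 difference of 0.33 (edgeR adjusted p = 0.052), and over all genes 182 were called (1.04%).

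Summed markers of endothelial and ganglion cells separated vehicle from 24:5, and those of the other cell types examined overlapped. No test was run on these sums, and 11.6% of all single genes separated the groups. The 5 endothelial markers summed to 97.4 to 118.4 CPM with vehicle and to 65.6 to 76.5 CPM with 24:5, without overlap. The 6 microglia markers summed to 134.2 to 221.7 CPM with vehicle and to 69.6 to 143.3 CPM with 24:5, with overlap. The 5 ganglion cell markers summed to 654.5 to 738.7 CPM with vehicle and to 740.9 to 846.1 CPM with 24:5, higher and without overlap. The 6 rod markers summed to 35339.8 to 41820.4 CPM with vehicle and to 41552.8 to 45275.2 CPM with 24:5, with overlap. The part of these cells in the differences of the oxidation genes was not tested. Of the 32 intervals, 22 lay within 0.5 of 0 and 31 within 1, and that of Acads reached -1.05.

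A further 51 genes around the pathway were listed by role: malonyl-CoA control, further synthetases and thioesterases, ketone bodies, branched and odd chain steps, fatty acid uptake and binding, regulators, and carnitine synthesis with electron acceptors. Of these 45 could be tested uninjected and 49 injected, and 0 were called in each of the 4 comparisons by limma or edgeR. The medians of their log2 differences were 0.05 for age, 0.01 for genotype, 0.01 for 18 months against mutant and -0.04 for 24:5. At an unadjusted p below 0.05 there were 0, 1, 0 and 3 of them in that order, beside 3.65%, 2.19%, 2.14% and 6.61% of all genes. The groups did not overlap for 0, 2, 1 and 5 of them, beside 4.17%, 5.97%, 4.47% and 11.6% of all genes.

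With age, the coactivator gene Ppargc1b had the smallest p of this wider list, at a log2 difference of -0.36 (SE 0.17, limma adjusted p = 1.0). Without replicate 1 of wildtype at 12 months it was -0.21. The next were Acot13 (0.27) and Acot9 (0.09), thioesterases, and Slc27a1 (-0.16), a fatty acid transport protein. Acot13 was at 0.14 without replicate 1 of wildtype at 18 months, Acot9 at 0.05 without replicate 2 of wildtype at 12 months, and Slc27a1 at -0.08 without replicate 1 of wildtype at 12 months and at -0.31 without replicate 3. In the mutant Fabp3, a fatty acid binding protein, was at 22.05 ± 1.90 FPKM against 18.7 ± 1.44 FPKM in wildtype (SD, n = 3 each), without overlap, at a log2 difference of 0.23 (limma adjusted p = 1.0). Prkaa1, a catalytic subunit of the energy sensor AMPK, was at -0.13, also without overlap, Fabp5 at 0.23 and Sirt1 at -0.17. Without replicate 2 of wildtype Fabp5 was at 0.10 and Sirt1 at -0.07. In wildtype at 18 months against the mutant, the log2 differences were -0.15 for Fabp3, 0.09 for Acsl6, 0.14 for Sirt1 and 0.20 for Ppara, the nuclear receptor known for driving fatty acid oxidation genes. Without replicate 3 of the mutant these were -0.09 for Fabp3, 0.08 for Sirt1 and 0.09 for Ppara.

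After 24:5, Fabp5, another fatty acid binding protein, was at 23.8 ± 2.02 CPM against 35.8 ± 8.28 CPM with vehicle (SD, n = 3 each). The groups did not overlap, and the log2 difference was -0.59 (SE 0.17, edgeR adjusted p = 0.459). Acss1, a mitochondrial acetyl-CoA synthetase, was at 0.449 ± 0.196 CPM against 1.45 ± 0.905 CPM (log2 difference -1.68, SE 0.55, edgeR adjusted p = 0.514), and Acsf2 at 1.68 ± 0.608 CPM against 3.27 ± 0.873 CPM (log2 difference -0.96, SE 0.34, edgeR adjusted p = 0.593), with n = 3 each. Both were low genes without overlap between groups. Acss1 was at -1.10 without replicate 1 of vehicle. Nrf1 was at a log2 difference of 0.16, and at 0.10 without replicate 3 of vehicle. These genes moved with the lens level as well: with it as a covariate the log2 difference was -0.35 for Fabp5, -0.89 for Acss1 and -0.67 for Acsf2. None of the 3 passed with or without it.

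Uninjected and vehicle-injected retinas at 18 months were set side by side as CPM, without a test, since the tables were normalised separately and injection, library and table cannot be told apart. Etfb stood at 3.01 CPM uninjected and 6.67 CPM with vehicle, a log2 ratio of 1.145. Eci1 stood at 38.9 CPM uninjected and 20.7 CPM with vehicle, a log2 ratio of -0.91 at percentile 8.35 among the ratios of the 11334 genes with at least 5 CPM in both. The median over those genes was -0.13. The ratio of Etfa to Etfb was accordingly 6.16 to 12.4 uninjected and 2.25 to 4.62 injected, and that of Eci1 to Eci2 8.88 to 13.6 and 4.15 to 4.97.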

How the data were processed

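The members and the lists were chosen with earlier results of these data known. The authors deposited FPKM per gene for the 10 uninjected retinas and raw read counts per gene for the 6 injected ones. The tools in the submitters' processing notes are featureCounts 2.0.6, HISAT2 2.2.1 and DESeq2 1.42.0, on mm10, with no role stated. The annotation release was not given in the sources used here, nor was the strand setting. Per the labels' protocols the libraries were poly(A)-selected and strand-marking. Whether the selection was effective was not tested. The noncoding RNAs Rn7sk, Rpph1 and Rmrp together took 8.54% to 13.4% of the counts of an injected library.

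FPKM times gene length gave whole reads for 100.0% of 211771 values between 1 and 1000 reads, within 0.02 of a read. FPKM was tested with limma 3.58.1 (limma-trend, robust, R 4.3.3) on log2(FPKM + 1) over genes with a mean of at least 1, the 3 groups in 1 fit. For the counts, edgeR 4.0.16 was used (robust quasi-likelihood fit, TMM, filterByExpr), and CPM are TMM-normalised. All tests are two-sided, p-values were adjusted by Benjamini-Hochberg over all genes tested, and the threshold was 0.05. Replicates of a group were neither identical nor alike within counting noise (chi-square per degree of freedom 3.25 to 47.6). Alternatives changed the pseudocount, filter, scaling, test, libraries and covariates. The scripts were tested on simulated data.

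Levels are given for all 33 genes, and statistics for the 6 with the smallest p per comparison and up to 4 of the wider list. The split by lens RNA above 500 CPM, with Crot, Hadh, Decr1 and Acads beside it, and Etfb and Eci1 between tables, were singled out after their values were seen. Coordinates are those of the deposited table; promoters are from RefSeq (GRCm38.p6). The mitochondrially encoded genes were at 0 counts in the injected table and are not analysed here.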

Additional observations from a re-analysis of the deposited data

Results flagged for a closer look

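Acsl5 in replicate 1 of wildtype at 18 months, at 2.53 FPKM, stood apart from the other 3 libraries of its group, at 2.97, 3.01 and 3.01 FPKM. The gap to the nearest library was 0.903 of the range of the group. It was the 1 such library among the 33 genes examined in the only group of 4. With 33 genes examined, 1 such library may arise by chance, which was not tested.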

How the results depend on the processing

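Of the oxidation genes 0 were called under any of the alternatives. These numbered 16 for age, 15 for genotype, 16 for 18 months against mutant and 14 for 24:5, each library left out included. The alternatives gave 599 values for the 40 named gene results. All 599 kept the direction and the side of the threshold of the main result. Even so, leaving out 1 library moved 28 of the 40 differences by more than 1.5 times. Leaving out 1 library at a time moved the median log2 difference from -0.04 to 0.01 for age, from -0.06 to -0.02 for genotype, from 0.0104 to 0.0666 for 18 months against mutant and from -0.04 to 0.004 for 24:5. The value 0.0104 for 18 months against mutant came without replicate 1 of wildtype at 18 months.

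With the replicate number as a block, 0 of the oxidation genes were called in every comparison, and the medians were -0.01, -0.04, 0.04 and -0.04. The labels do not say that a number marks a pair, so whether injected libraries of 1 number are fellow eyes is unknown. Deviations of same-numbered libraries correlated between -0.467 and 0.514 uninjected and at 0.389, -0.194 and 0.408 injected, and not every library correlated best with its own number. The noncoding RNAs Rn7sk, Rpph1 and Rmrp together took 12.9% and 13.4% of the counts of the injected libraries numbered 1, 9.35% and 9.55% of those numbered 2, and 8.54% and 9.21% of those numbered 3.

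Over all genes the count called after 24:5 depended on the setting: 2 as reported, 88 with the block, 182 with the lens covariate, 245 by DESeq2, 85 without a filter and 105 without replicate 3 of vehicle. Over all genes the age comparison gave 4 without a filter, 9 by DESeq2 and 1 with the Malat1 split or by edgeR, the genotype comparison 4 without a filter, and 18 months against mutant 1 without a filter or with the Malat1 split, 2 with only its groups in the fit and 11 by DESeq2. The cause was not tested. The rescaling of levels to the principal transcript and the intervals from recovered reads were chosen after seeing the data. Low depth limits Cpt1b, Etfb, Acads and Acad10.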
